A study of Mus musculus with 18 samples.

Results

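miR-221 and miR-222 are a pair of microRNAs encoded side by side on the X chromosome. They were taken by name as 2 of the 583 mature miRNA rows measured in mammary tumours of 18 mouse strains, and both passed the filter on low values that left 281 tested rows. The animals were F1 offspring of AKXD RI (recombinant inbred) strains and FVB/N mice with the transgene TgN(MMTV-PyVT)634Mul, so all carried 1 FVB/N genome and polyoma middle T under the mouse mammary tumour virus promoter. AKXD strains descend from AKR/J and DBA/2J mice, and each is fixed for 1 parental allele at most loci. Tumour RNA of each strain was pooled into 1 library, while the sources used here give neither the animals' ages nor how many tumours entered a pool. Every strain is therefore a group with n = 1 and its level has no replicate check, and SDs are spreads over strains that hold pool and library differences as well.

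Both miRNAs are cut from a common primary transcript and share the seed, the 5′ stretch that pairs with target mRNAs, so they are expected to bind many of the same targets. In human cells they are known for repressing the cell cycle inhibitor p27 (CDKN1B), the receptor KIT and the oestrogen receptor ESR1, and they are reported to be higher in basal-like than in luminal breast cancer lines. They are also made by endothelial and vascular smooth muscle cells, so in bulk tumour RNA a lower level can mean fewer cells of a type or less RNA per cell, which cannot be told apart.

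The mature sequences are shown because they carry the shared seed, bases 2 to 8, which is in capitals (RefSeq, GRCm38.p6, 5′ to 3′, both on the minus strand of chromosome X).

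miR-221: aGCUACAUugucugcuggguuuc

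miR-222: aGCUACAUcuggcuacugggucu

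The first 8 bases were identical, and without gaps 11 of the 23 positions were. Of the 1679 mature mouse names in the RefSeq table, 3 had this seed, the other being miR-1928, which was not analysed here. Below are the hairpins, with the mature strand in capitals.

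Mir221: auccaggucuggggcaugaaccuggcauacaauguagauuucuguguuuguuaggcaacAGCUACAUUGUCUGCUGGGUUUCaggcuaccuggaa

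Mir222: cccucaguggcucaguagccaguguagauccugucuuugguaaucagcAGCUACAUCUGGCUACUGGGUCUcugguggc

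Mir221 lies at chromosome X, 19146294 to 19146388, and Mir222 at 19146893 to 19146971, with 504 bases between them. GENCODE places neither inside another gene. The nearest other annotated gene is Gm14636, a non-coding transcript on the same strand whose near end, its 3′ end, lies 10.0 kb from Mir222 on the 5′ side of the pair. The passenger strands of both hairpins were not analysed here.

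The libraries held 4361226 to 14939851 miRNA reads. Levels are CPM, that is, reads divided by each library's total and by its TMM factor, a trimmed mean of M values, which ran between 0.671 (strain 14) and 1.67 (strain 28). The first principal component of the 281 rows set strains 10, 13, 14 and 20 at its low end. The label of a mammary tumour was checked on its epithelial miRNAs, and miR-200c was at 11094 to 26253 CPM, while miR-124, which defines neurons, was at 0 to 0.782 CPM. The liver miRNA miR-122 was found at 1.56 to 375 CPM, and its part in the results was not tested. Skeletal muscle miRNAs (miR-1, miR-133a, miR-133b and miR-206) were abundant, summing to between 22336 CPM (strain 9) and 303045 CPM (strain 14). The pools thus held RNA of muscle as well as of tumour, in amounts that differed between strains.

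miR-221 was present in all 18 pools at a moderate level, 70.4 ± 20.4 CPM (SD, n = 18), rank 157 of the 281 tested rows by mean. It was highest in strains 23 (114 CPM) and 16 (110 CPM), followed by strains 13 (90.9 CPM), 2 (82.0 CPM), 10 (79.9 CPM), 28 (79.8 CPM) and 14 (75.1 CPM). The middle of the panel was formed by strains 27 (70.6 CPM), 21 (68.4 CPM), 22 (65.6 CPM), 24 (65.3 CPM) and 20 (64.3 CPM). Strains 7 (60.0 CPM), 18 (55.5 CPM) and 25 (54.8 CPM) came next, and strains 3 (45.5 CPM), 9 (43.7 CPM) and 11 (41.3 CPM) were lowest. The panel thus spanned 2.77-fold, with 1 pair of strains above the rest and 3 strains below it. Exact 95% Poisson intervals of the reads, which cover counting error only, overlapped between neighbours at 15 of the 17 steps of this order. The exceptions were the steps below strain 16 and below strain 25. With total reads alone the range was 3.81-fold and strain 28 was highest, at 133 CPM, against 35.1 CPM in strain 11, again the lowest.

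miR-222 was lower than miR-221 in 18 of 18 pools, at 26.3 ± 6.88 CPM (SD, n = 18), rank 211 of 281. Strains 27 (42.6 CPM) and 28 (41.6 CPM) stood above the rest. The next were strains 7 (30.9 CPM), 2 (30.02 CPM), 25 (29.2 CPM), 11 (27.8 CPM), 9 (27.5 CPM), 13 (26.5 CPM) and 24 (25.6 CPM). Below them lay strains 18 (23.8 CPM), 23 (23.2 CPM), 20 (22.9 CPM), 21 (22.6 CPM), 16 (21.7 CPM), 3 (21.7 CPM) and 14 (20.8 CPM), and the lowest were strains 10 (17.9 CPM) and 22 (17.6 CPM). The range was 2.42-fold, and neighbouring intervals overlapped at 16 of 17 steps, the exception being the step below strain 28. Scaling by total reads alone gave a range of 5.45-fold, with strain 28 (69.6 CPM) well above strain 27 (44.3 CPM) and strain 10 lowest (12.8 CPM). Among the highest 6 strains of each miRNA, strains 2 and 28 were common to both. Strain 11, the lowest for miR-221, held rank 6 for miR-222, and strain 10, at rank 5 for miR-221, was next to last for miR-222.

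**Figure D1:**
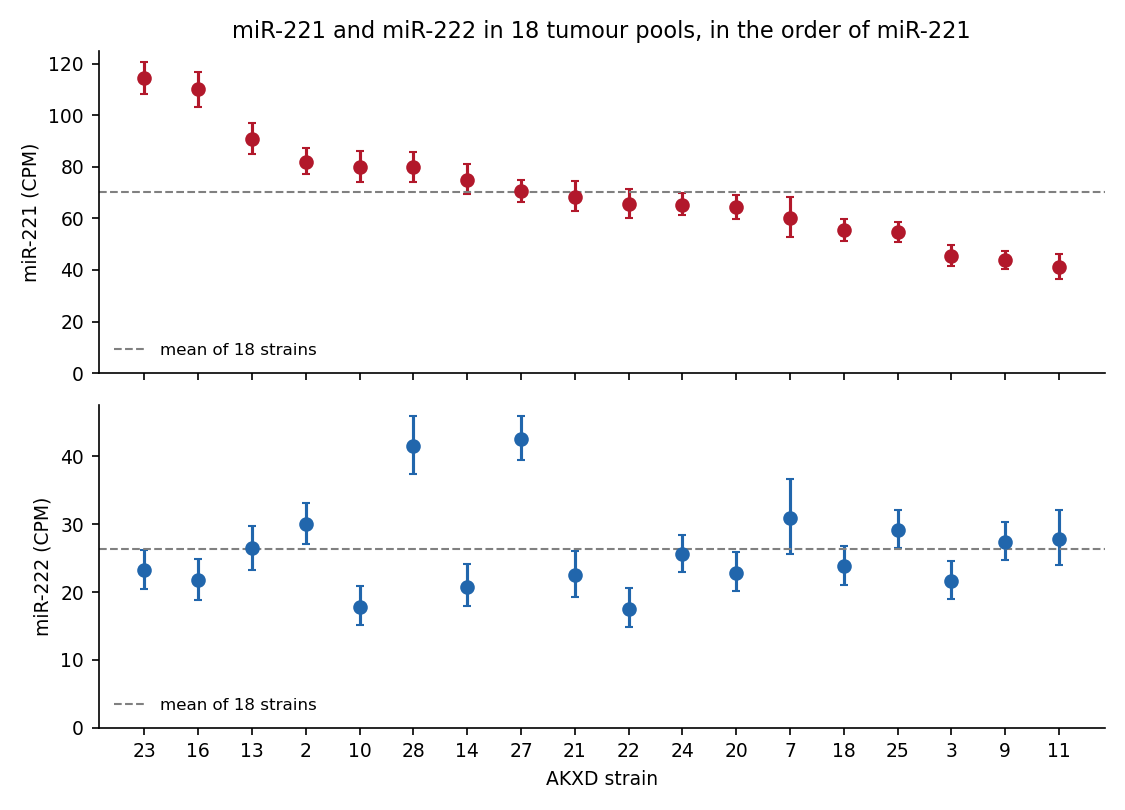
CPM of miR-221 (upper panel) and miR-222 (lower panel) in each strain, both in the order of miR-221; bars are exact 95% Poisson intervals of the reads and dashed lines the means of 18 strains. miR-221 is at 114 CPM in strain 23, the highest, and at 41.3 CPM in strain 11, the lowest, while miR-222 follows no such order and peaks in strains 27 and 28.

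Neither miRNA was among the more variable of the panel. On the log2(CPM + 1) scale, which slightly understates changes of low miRNAs, the SD over strains was 0.41 for miR-221 and 0.34 for miR-222. Of the other tested rows, 41.8% had a smaller SD than miR-221 and 24.6% a smaller one than miR-222, and the median over the 281 rows was 0.45. Counting error was smaller than these spreads, at 0.041 to 0.092 log2 for miR-221 (246 to 1260 reads) and 0.056 to 0.13 log2 for miR-222 (126 to 662 reads).

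No relation between the levels of miR-221 and miR-222 passed the threshold over the panel. Spearman's rho between them was -0.139 (two-sided permutation p = 0.581) and Pearson's r -0.0793 (permutation p = 0.754, n = 18). Without strains 23 and 16, at the greatest distance from the median miR-221 level, r was 0.0599. Without strains 10, 13, 14 and 20, rho was 0.0110 (permutation p = 0.974). With libraries scaled by total reads alone the sign turned, to 0.337 (permutation p = 0.173). No other scaling, pseudocount or left-out strain brought it past the threshold either, and a p above it does not show that the miRNAs vary independently.

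**Figure D2:**
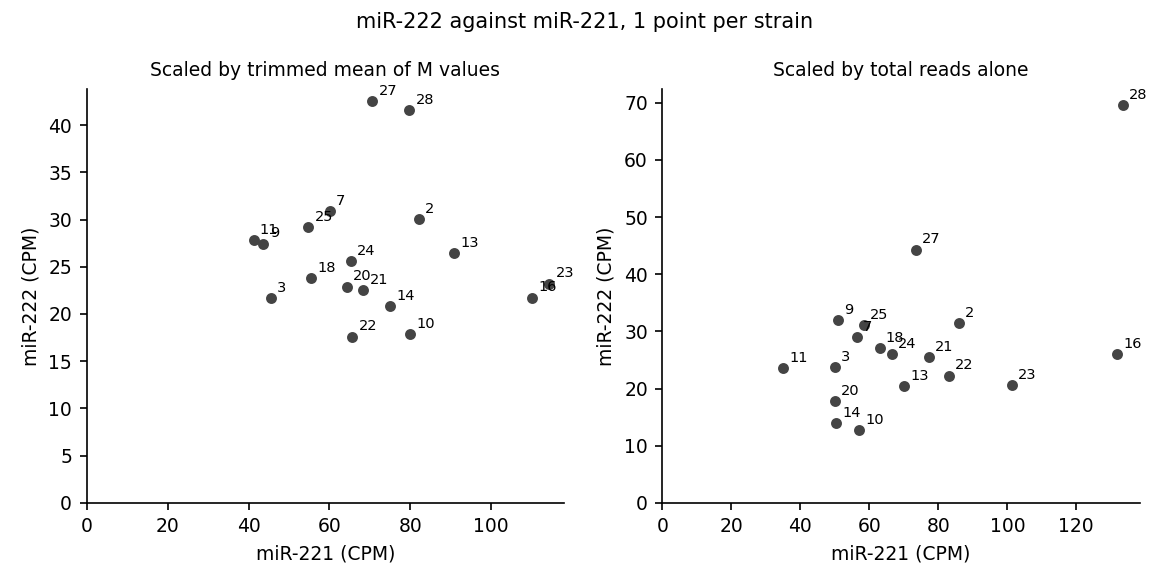
miR-222 against miR-221 in CPM, 1 point per strain with its number, with TMM scaling (left) and with total reads alone (right). No trend is seen on the left (rho -0.139), and on the right (rho 0.337) strain 28 is highest for both miRNAs.

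The ratio of miR-221 to miR-222 reads within a library needs no scaling between libraries. It is a ratio of reads and not of molecules, since small RNA libraries capture different sequences with unequal efficiency. The geometric mean was 2.65, or 1.41 ± 0.56 on the log2 scale (SD, n = 18). There were 5.06 reads of miR-221 for each of miR-222 in strain 16, 4.92 in strain 23, 4.47 in strain 10, 3.73 in strain 22, 3.61 in strain 14 and 3.43 in strain 13. The ratio was 3.03 in strain 21, 2.81 in strain 20, 2.73 in strain 2, 2.55 in strain 24, 2.33 in strain 18 and 2.10 in strain 3. It was 1.95 in strain 7, 1.92 in strain 28, 1.88 in strain 25, 1.66 in strain 27, 1.59 in strain 9 and 1.48 in strain 11. miR-221 thus made up 59.8% to 83.5% of the reads of the pair, and the ratio spanned 3.41-fold. The strains formed a gradual series: exact binomial intervals overlapped at all 17 steps of this order, while the ends were far apart, at 4.35 to 5.91 in strain 16 and 1.23 to 1.79 in strain 11. The SD of the log2 ratio was larger than that of either miRNA and larger than its counting error of 0.071 to 0.16.

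**Figure D3:**
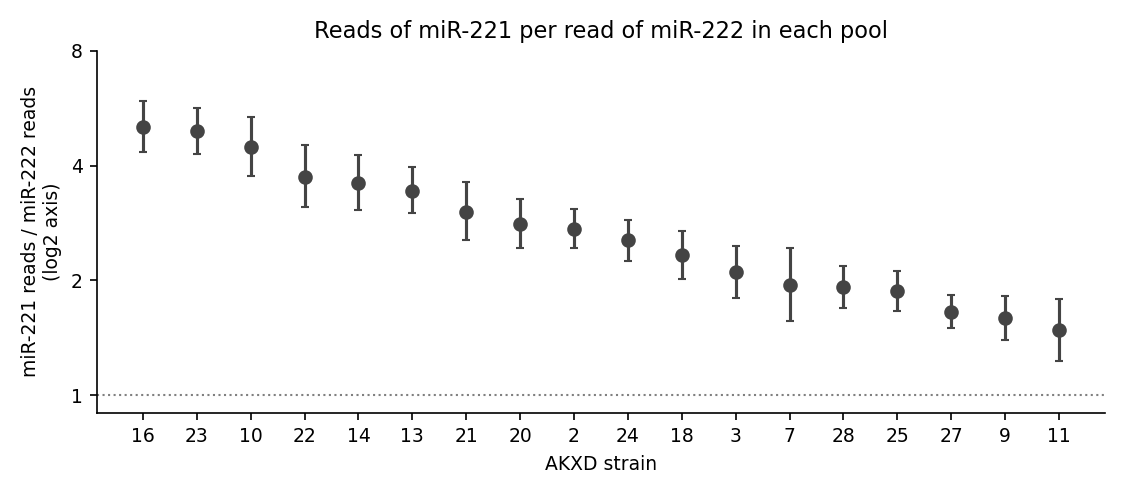
Reads of miR-221 per read of miR-222 in each strain on a log2 axis, in falling order; bars are exact 95% binomial (Clopper-Pearson) intervals. All 18 strains lie above 1, from 5.06 in strain 16 to 1.48 in strain 11.

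Strains 10, 13, 14 and 20 had a mean log2 ratio of 1.82, against 1.29 in the 14 other strains. Of 9 relations of miR-221, miR-222 or their log2 ratio with the number of reads, the scaling factor or the first principal component, none passed the threshold (adjusted permutation p of rho 0.914 or more, of r 0.381 or more). For the log2 ratio and the principal component, rho was -0.236 (permutation p = 0.341) and r -0.391 (permutation p = 0.108, and r -0.179 without strains 10 and 13).

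To place this pair among others, all tested miRNAs with a single matched gene were paired where the genes lay within 10 kb on 1 strand, which gave 55 further pairs. Such neighbours are often made from a common transcript. Of the 55, 43 had a rho above 0, and the median of all 56 was 0.404. miR-381 with miR-382 of the imprinted Dlk1-Dio3 cluster (0.915), miR-216a with miR-217 (0.868) and miR-363 with miR-20b (0.849) were highest, and miR-25 with miR-106b (-0.569), miR-127 with miR-136 (-0.478) and miR-96 with miR-183 (-0.414) lowest. miR-221 with miR-222 ranked 48 of 56, with 8 pairs below it. In the spread of the log2 ratio, 0.56 against a median of 0.37, 16 pairs exceeded it. Under total reads alone all 56 pairs were above 0, with a median of 0.671, and 5 lay below miR-221 with miR-222. The pairs are not independent, as 23 lie on chromosome 12 and many share a member. How reads were divided between similar miRNAs such as miR-93 and miR-106b, or miR-17 and miR-20a, was not stated in the sources used here.

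**Figure D4:**
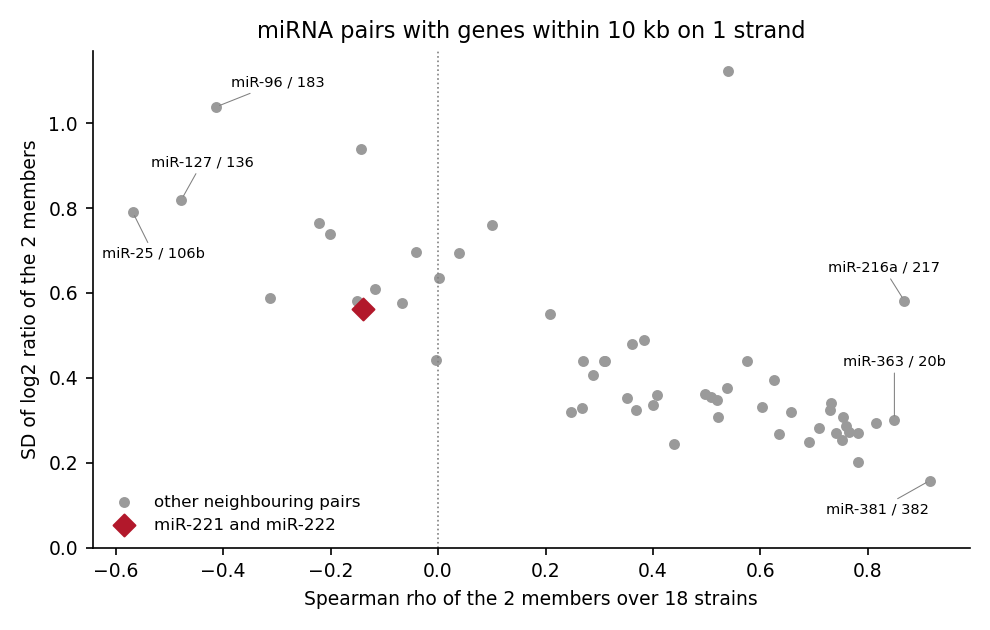
Spearman rho of the 2 miRNAs of a pair over 18 strains (x axis) against the SD of their log2 ratio (y axis) for 56 pairs with genes within 10 kb. miR-221 and miR-222 (diamond, rho -0.139, SD 0.56) lie among the pairs of low rho and wide ratio, and the 3 highest and 3 lowest other pairs by rho are named.

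The ratio of miR-221 to miR-222 moved with the ratios of other neighbouring pairs, in a comparison that was added after the levels had been seen and in which no library scaling enters. Of the 55 other log2 ratios, 18 (32.7%) were related to it in rank at an adjusted permutation p under 0.05, and 28 at an unadjusted one. Absolute rho of the 18 ranged from 0.575 to 0.862. They held 28 different miRNAs from 8 chromosomes, and 8 of the 18 pairs lie on chromosome 12. Pearson's r called 22.

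The closest was miR-25 over miR-106b, neighbours in the miR-106b-25 cluster on chromosome 5 (rho 0.862, permutation p = 2e-05, adjusted p = 0.00055; r 0.821, permutation p = 4e-05, adjusted p = 0.0022). That ratio was 1.28 in strain 10, 0.946 in strain 14, 0.920 in strain 13 and 0.642 in strain 20, and 0.578 and 0.559 in strains 16 and 23, where the ratio of miR-221 to miR-222 was highest. It was 0.224 in strain 11, 0.219 in strain 3, 0.218 in strain 25 and 0.207 in strain 9. The strains with few reads of miR-222 per read of miR-221 were thus also those with few reads of miR-106b per read of miR-25. Without strains 16 and 23, at the greatest distance from the median log2 ratio of miR-221 to miR-222, r was 0.890, and without strains 10, 13, 14 and 20, rho was 0.890. By level, miR-25 had rho 0.829 and miR-106b -0.637 with miR-221 in the same libraries, so these relations and that of the ratios are not independent.

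miR-93 over miR-106b gave rho 0.827 (permutation p = 1e-05, the smallest that the resamples can give, adjusted p = 0.00055) and r 0.753 (permutation p = 0.00031). It shares miR-106b with miR-25 over miR-106b, so these ratios are not separate results. The remaining pair of that cluster, miR-25 over miR-93, gave rho 0.195 (adjusted permutation p = 0.499). miR-191 over miR-425, a pair on chromosome 9, gave rho 0.754 (adjusted permutation p = 0.00583) with a range of 4.35 in strain 10 to 1.92 in strain 27. miR-17 over miR-20a of the miR-17-92 cluster gave 0.740 (adjusted permutation p = 0.00636), with 0.511 in strain 10 and 0.293 in strain 3. miR-141 over miR-200c, of the epithelial miR-200 family, gave a negative rho (-0.712, adjusted permutation p = 0.00636) and r (-0.569). The sign of such values depends only on which member was made the numerator. Of the other X-linked pairs 3 were called, a smaller share than the 32.7% over all 55 pairs, and this difference was not tested. They were miR-501-3p over miR-188-5p (rho 0.752, adjusted permutation p = 0.00583), miR-188-5p over miR-532-5p (rho -0.713, adjusted permutation p = 0.00636) and miR-503 over miR-322 (rho 0.672, adjusted permutation p = 0.0133). In both pairs with miR-188-5p, its reads per neighbour read tended to fall as the ratio of miR-221 to miR-222 rose. The number of calls was 7 without strains 10, 13, 14, 20 and 28 together, 16 without the first 4 and 30 without strain 16.

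**Figure D5:**
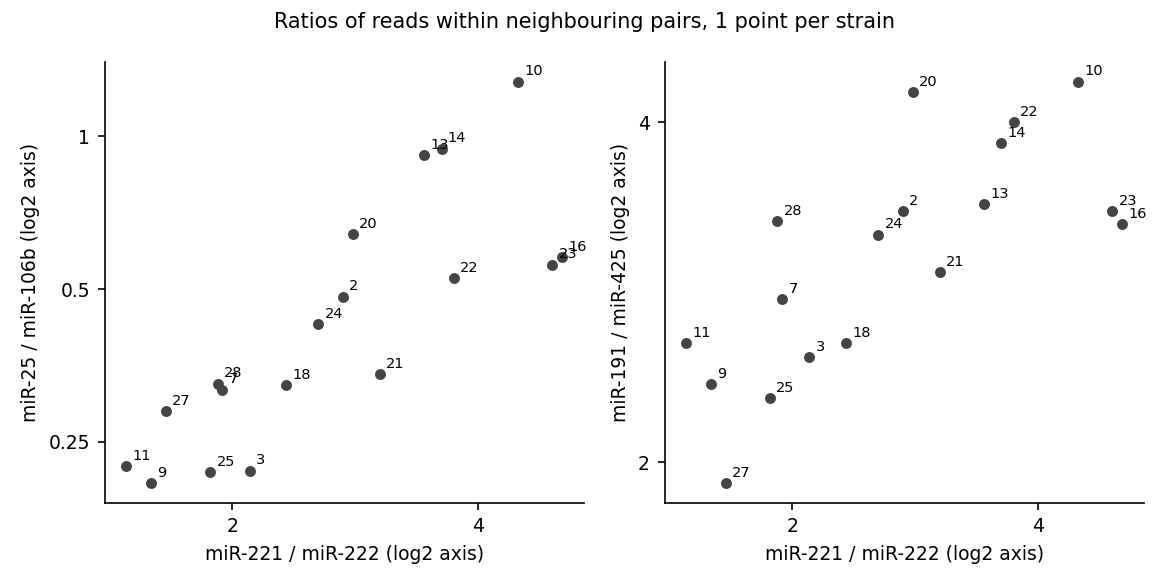
Ratio of reads of miR-25 to miR-106b (left) and of miR-191 to miR-425 (right) against the ratio of miR-221 to miR-222, log2 axes, 1 point per strain with its number. Both rise with the ratio of miR-221 to miR-222 (rho 0.862 and 0.754), and strains 9, 11, 25 and 27 are at the lower left in both panels.

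Which other miRNAs resembled each member was then described by Spearman's rho over the 18 strains, and tested with a limma slope on the member fitted across all 280 others. The points share their libraries and scaling. For miR-221, 0% of the slopes were called in either direction (28 of 280 at an unadjusted p under 0.05, 10 positive and 18 negative, smallest adjusted p = 0.293). For miR-222, 0% were called too (38 of 280 at an unadjusted p under 0.05, 26 positive and 12 negative, smallest adjusted p = 0.158). With total reads alone, 138 slopes on miR-222 were called, 134 of them positive, and 0 on miR-221 (70 at an unadjusted p under 0.05).

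The nearest to miR-221 was miR-25 (rho 0.829), with a slope of 0.49 ± 0.15 (SE) log2 per log2 of miR-221 (limma, adjusted p = 0.293). miR-143 (0.507), a miRNA of smooth muscle and fibroblasts, miR-130b (0.505), miR-152 (0.501) and miR-574-3p (0.492) followed. All of these 5 had a negative rho with miR-222, from -0.451 to -0.100. miR-145, also a miRNA of smooth muscle and fibroblasts, had a rho of -0.0196 with miR-221. Farthest were miR-200a (-0.719), miR-125a-5p (-0.709), miR-429 (-0.647), miR-96 (-0.639) and miR-106b (-0.637), and all 5 had a positive rho with miR-222, from 0.276 to 0.490. With total reads alone the rho of these last 5 with miR-221 lay between -0.205 and 0.193, and that of miR-25 was 0.798.

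The nearest to miR-222 was miR-29a* (rho 0.785), with a slope of 1.496 ± 0.40 (SE) log2 per log2 of miR-222 (limma, adjusted p = 0.158). It is a low row, at 10.1 CPM on average. miR-151-5p (0.643) came next, then miR-322 (0.637) and miR-450a-5p (0.604), which lie together on the X chromosome, and the leukocyte miRNA miR-142-3p (0.595). All of these 5 had a negative rho with miR-221, from -0.492 to -0.366. The other tested miRNAs of the X-linked miR-322/miR-503 cluster had lower rho with miR-222, from -0.0650 (miR-542-3p) to 0.259 (miR-503). Farthest were miR-501-3p (-0.647), also X-linked, miR-17* (-0.628), miR-382 (-0.587), miR-127 (-0.531) and miR-30d (-0.511). Their rho with miR-221 was positive, from 0.170 to 0.387, apart from that of miR-17* (-0.0237). With total reads alone these 5 did not stay negative as a group: rho with miR-222 was 0.340 for miR-501-3p, 0.461 for miR-17*, 0.0217 for miR-382, 0.0382 for miR-127 and -0.0939 for miR-30d, while the nearest 5 lay between 0.777 and 0.895. Over the 279 other miRNAs, rho with miR-221 and rho with miR-222 had opposite signs in 190, and their rank correlation across miRNAs, which are not independent replicates, was -0.569. It was -0.521 with median-of-ratios scaling, -0.376 with upper-quartile scaling and 0.258 with total reads alone, where the signs were opposite in 38 of 280.

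Other miRNAs of the X chromosome were likewise described by rho, with no test of the group. Of 20 other tested X-linked miRNAs with a single matched gene, 7 had a positive rho with miR-221 (35.0%, against 51.1% of all tested rows) and 12 with miR-222 (60.0%, against 52.5%). The medians were -0.0681 for miR-221 and 0.0764 for miR-222, beside medians over all tested rows of 0.0114 and 0.0124. The extremes were miR-188-5p (-0.449) and miR-503 (0.247) for miR-221, and miR-501-3p (-0.647) and miR-322 (0.637) for miR-222. Scaled by total reads alone, most rows were positive, 17 of the 20 with miR-221 (85.0%, against 87.5% of all) and 19 with miR-222 (against 86.8% of all), and the sign turned for miR-188-5p with miR-221 (0.294) and for miR-501-3p with miR-222 (0.340).

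Because the pair has been linked to basal-like tumours and to stroma, both members were set against 11 lists of miRNAs known from cell types or clusters, by the mean centred log2(CPM + 1) of each list. Of the 22 relations, 0 passed at an adjusted permutation p under 0.05, and 0 were under 0.05 before adjustment by rho. miR-203 and miR-205, miRNAs of basal and stratified epithelium with a summed level between 1568 CPM (strain 22) and 10652 CPM (strain 2), gave rho 0.290 with miR-221 (permutation p = 0.245; r 0.411) and -0.102 with miR-222 (permutation p = 0.685; r -0.111).

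The epithelial miR-200 list of miR-200a, miR-200b, miR-200c, miR-141 and miR-429 gave rho -0.461 with miR-221 (permutation p = 0.0567, adjusted p = 0.672; r -0.471). Its members were uneven. miR-200a (-0.719), miR-429 (-0.647) and miR-200b (-0.494), of the chromosome 4 cluster, had lower rho with miR-221 than miR-141 (-0.195) and miR-200c (-0.0630), of the chromosome 6 cluster; this difference was not tested, and with total reads alone the 5 lay between -0.205 and 0.0836. Without strains 10, 13, 14 and 20 the list passed (rho -0.776, adjusted permutation p = 0.0361), but without strain 28 as well no list relation did (smallest adjusted permutation p = 0.0546), and with total reads alone rho was -0.0691. The summed level of the list was lowest in strain 16 (28514 CPM), where miR-221 was at 110 CPM, and highest in strain 25 (54694 CPM), where it was at 54.8 CPM. This sum is not the tested score, and its largest part is miR-200c (17036.5 CPM on average), with rho -0.0630. With miR-222 the list gave rho 0.0630 (permutation p = 0.805).

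The leukocyte list was lowest in strain 10 (1573 CPM summed) and highest in strain 27 (18249 CPM), and miR-222 was next to lowest in strain 10 and highest in strain 27. Most of this sum is miR-142-3p (4994 CPM on average, rho 0.595 with miR-222). The other members had rho of 0.170 to 0.344 with miR-222. For the list score, rho with miR-222 was 0.377 (permutation p = 0.124, adjusted p = 0.682), and r was 0.514 (permutation p = 0.0291, adjusted p = 0.551) and 0.321 without the pair of strains farthest from the median of miR-222. With miR-221 the rho was -0.224 (permutation p = 0.368). The endothelial arms of miR-126 gave rho 0.331 with miR-222 (permutation p = 0.178) and -0.234 with miR-221 (permutation p = 0.348). Taken singly, miR-126-5p (1327 CPM on average) had rho 0.447 with miR-222 and -0.298 with miR-221. The more abundant miR-126-3p (12442 CPM) had 0.0753 and 0.115. miR-143 with miR-145, of smooth muscle and fibroblasts, gave 0.263 with miR-221 (permutation p = 0.291) and 0.146 with miR-222 (permutation p = 0.564). These members differed, with rho of 0.507 (miR-143) and -0.0196 (miR-145) with miR-221, and of -0.106 and 0.201 with miR-222. The X-linked miR-322/miR-503 list gave 0.434 with miR-222 (permutation p = 0.0716, adjusted p = 0.672). Its members were uneven, with miR-322 at 0.637 and miR-450a-5p at 0.604 but the other tested ones at -0.0650 to 0.259. The miR-17-92 list, linked to proliferation, gave -0.410 with miR-221 (permutation p = 0.0917, adjusted p = 0.672). Within it, rho with miR-221 ran from -0.509 (miR-18a) and -0.490 (miR-20a) to 0.0299 (miR-17) and 0.199 (miR-92a). The mesenchymal, skeletal muscle, red cell and X-linked miR-106a-363 lists gave rho of -0.154 to 0.146 with either member. With total reads alone 6 of the 22 relations passed, all positive. With miR-221 these were the basal epithelial list (0.604), the smooth muscle and fibroblast list (0.684) and the mesenchymal list (0.587). The others were the endothelial (0.690), miR-17-92 (0.583) and miR-322/miR-503 (0.721) lists with miR-222. Among other relations, the sign turned for miR-221 with the miR-17-92 (0.381), endothelial (0.263), leukocyte (0.0382), miR-322/miR-503 (0.426) and miR-106a-363 (0.102) lists. It also turned for miR-222 with the basal epithelial (0.426), mesenchymal (0.494) and red cell (0.207) lists. The part of other cell types in the levels of the pair was not tested.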

How the data were processed

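Small RNA of 18 tumour pools was read on an Illumina Genome Analyzer IIx, as the series' design text states. The deposited table holds log2 values; per the submitters' processing notes BWA and mm9 were used, without versions or roles, and the sources used here name no counter. Undoing the log2 gave, in each library, whole reads multiplied by 1 constant (1.00 to 1.39), for 100.0% of 3818 values of up to 50 reads within 0.006 log2. Values listed as 0 were kept at 0.

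Identical rows were counted once (571 rows left). CPM used TMM scaling, trimming 30% by log ratio and 5% by abundance, and rows averaging 10 CPM or more were tested on log2(CPM + 1). Slopes were fitted with limma 3.58.1 in R 4.3.3 (trended robust prior) over all tested rows with Benjamini-Hochberg adjustment at 0.05. Each correlation had a two-sided permutation p from 100000 resamples, adjusted within families of 9, 22 and 55. The limma slopes and the permutation test were tried on simulated data first. Coordinates and sequences are RefSeq's and GENCODE's for GRCm38; the table has none. The p-values concern relations over these pools, and without replicate libraries they hold no measure of the spread within a strain. Python 3.11.15, numpy 2.4.6, pandas 2.3.3 and scipy 1.17.1 were used.

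The members, lists and tests were chosen with earlier results of these data known. Named miRNAs are the members, the 5 with the highest and the 5 with the lowest rho for each, members of the lists, and the 3 pairs at either end; pairs named by their ratios were chosen after their values were seen. Alternatives were other scalings, filters, pseudocounts and limma priors, each strain left out in turn, and strains 10, 13, 14 and 20, or these and 28, left out.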

Additional observations from a re-analysis of the deposited data

How the results depend on the processing

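Of 202 alternative values, 190 kept their direction and their side of the threshold, or stayed within the spread allowed. With libraries scaled by total reads alone, rho of the pair was 0.337 in place of -0.139, the SD was 0.50 for miR-221 and 0.54 for miR-222, 138 other miRNAs were called with miR-222 in place of 0, and 6 list relations in place of 0. Without strains 10, 13, 14 and 20, rho of the pair was 0.0110 and 1 list relation was called. A pseudocount of 10 CPM gave miR-222 an SD of 0.26, by its construction. Leaving out 1 strain in turn gave 0 to 1 called miRNAs for miR-221 (miR-34c without strain 16) and 0 to 1 for miR-222 (miR-322 without strain 22), and 16 to 30 called ratios of other neighbouring pairs. Without strains 10, 13, 14, 20 and 28, 7 such ratios were called, with 13 strains left. Causes were not tested otherwise. Median-of-ratios and upper-quartile scaling, other filters and the plain limma prior changed no call. No paired analysis was possible because each strain has 1 library and no replicate number. Precision of miR-222 is limited by depth in strain 7, with 126 reads.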
